A study of Homo sapiens with 12 samples.

Results

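The transcripts described here are those of the cytosolic large ribosomal subunit proteins, the RPL family with RPLP0, RPLP1 and RPLP2. They were chosen by a fixed list of 45 Ensembl transcript IDs in which some genes have alternative candidate IDs. Of these, 30 were listed in the deposited count files and 15 in none, and all 30 were listed in every file, out of 18338 transcripts in the series. The study followed HEK293T, a line derived from human embryonic kidney and given as wild type in the labels, after addition of GSK-A1. This compound blocks PI4KA, a lipid kinase that makes phosphatidylinositol 4-phosphate at the plasma membrane. Ribosome-protected fragments (RPF, the mRNA stretches shielded from nuclease by ribosomes) and polyA mRNA were sequenced at 0, 60 and 360 min, with 2 replicates of each assay and time and 12 libraries in all. Every library carries the GSK-A1 label, so the 0 min libraries serve as reference only through the time in their titles, and no vehicle group was analysed here. The reference tables used here paired 0 of the member IDs with a gene symbol, so single transcripts are given by ID and no role is assigned to any of them.

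Large-subunit proteins build the part of the ribosome that holds the peptidyl transferase centre and the exit tunnel, and the P proteins form the stalk that recruits translation factors. Their mRNAs are known to be regulated together. Most carry a 5′ terminal oligopyrimidine (TOP) tract, a run of C and T that begins with C at the cap. Through LARP1 and the kinase mTORC1 this tract can move the mRNAs as a group on or off ribosomes without a change in their amount. The ratio of RPF to mRNA, called translational efficiency (TE) when compared between times, is the usual readout of that control.

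The TOP tract is shown because it is the sequence feature the family shares beyond its name. It was read in RefSeq windows of build GRCh38.p14, matched by gene symbol to the family and not to single member IDs, for 38 genes with 50 annotated starts. On the sense strand, C at the annotated first base followed by at least 4 bases that are each C or T was found at 28 of the 50 starts (56%), against 4.07% of the 35116 starts of all genes. By gene, 28 of the 38 had such a start, against 1404 of 27305 among all genes. A run led by C of at least 8 such bases, starting within 20 bases either side of the annotated start, was found at 39 starts (78%) against 15.5% of all. It was present for 34 of the 38 genes, against 5070 of 27305. The runs below cover 10 bases before and 20 from the annotated start, with the matching tract in capitals. The first 4 hold long tracts, RPL41 the shortest that was counted, and RPL10A and RPL4 have no match at the annotated base.
RPL39 (a protein of the exit tunnel, chrX:119791611-119791640, minus strand): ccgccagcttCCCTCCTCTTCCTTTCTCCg
RPL7A (chr9:133348208-133348237, plus strand): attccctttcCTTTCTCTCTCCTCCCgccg
RPLP2 (stalk, chr11:809957-809986, plus strand): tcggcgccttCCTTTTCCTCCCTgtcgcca
RPLP0 (stalk base, chr12:120201092-120201121, minus strand): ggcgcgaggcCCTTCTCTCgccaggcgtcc
RPL41 (a very short protein, chr12:56116623-56116652, plus strand): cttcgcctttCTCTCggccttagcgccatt
RPL10A (chr6:35468391-35468420, plus strand): aagacatgctagtctcttttccggttagcg
RPL4 (chr15:66504836-66504865, minus strand): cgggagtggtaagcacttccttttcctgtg
A match describes these letters only, and the absence of one says only that the tract is not at the annotated base.

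Library totals ran from 429026 counts (mRNA 360 min replicate 1) to 1165740 (RPF 0 min replicate 1). The least counted member had at least 81 counts in every RPF library and 45 in every mRNA library, so the members were far above the floor of the assay. Libraries differed in the family in ways that the times do not order. In RPF, replicate 2 lay apart from replicate 1 at all 3 times, and in mRNA, 60 min replicate 2 held the largest share of family counts of all 12 libraries. The labels give no batch, date or culture, so p-values measure only the spread between these libraries, which may be technical.

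The family took between 2.28% and 7.21% of a library's counts. In RPF replicate 1 the share was 6.33% (exact 95% interval 6.29 to 6.38) at 0 min, 6.79% (6.74 to 6.84) at 60 min and 6.90% (6.85 to 6.96) at 360 min. In RPF replicate 2 it was 3.41% (3.38 to 3.45), 3.62% (3.58 to 3.67) and 2.28% (2.24 to 2.32). Every replicate 1 library was thus above every replicate 2 library, whatever the time. In mRNA the shares of replicates 1 and 2 were 5.59% and 3.61% at 0 min, 4.53% and 7.21% at 60 min, and 3.87% and 3.81% at 360 min. The means were 4.87 ± 2.06%, 5.21 ± 2.24% and 4.59 ± 3.27% (SD, n = 2) in RPF and 4.60 ± 1.40%, 5.87 ± 1.90% and 3.84 ± 0.0412% in mRNA at the 3 times. The libraries of every pair of times overlapped in RPF, and in mRNA only those of 60 and 360 min did not. Within each replicate number the RPF share was higher at 60 than at 0 min, and at 360 min it was higher than at 0 min in replicate 1 and lower in replicate 2. Intervals cover counting error alone, and since these are shares, fewer family transcripts and more of other RNA cannot be told apart.

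**Figure D1:**
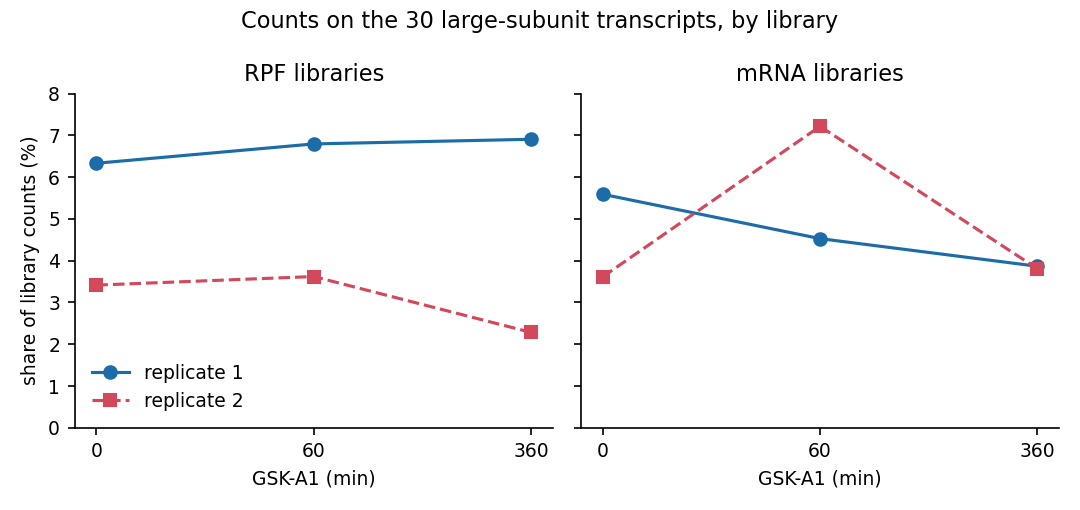
Share of each library's counts on the 30 members (y axis, percent) against time in GSK-A1 (x axis, min; evenly spaced categories), RPF left and mRNA right, 1 point per library, with circles and solid lines for replicate 1 and squares and dashed lines for replicate 2. The RPF replicates stay apart at 6.33 to 6.90% and 2.28 to 3.62%, while in mRNA the replicates change order and the highest point is 60 min replicate 2 at 7.21%.

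Against 0 min, the ratio of the RPF share to the mRNA share was higher at both later times in replicate 1 libraries and lower at both in replicate 2 libraries. With replicate 1 libraries it was 1.13 at 0 min, 1.5 at 60 min and 1.79 at 360 min. With replicate 2 libraries it was 0.945, 0.502 and 0.600, and from 60 to 360 min it was higher in both. At 360 min, 24 of 30 members had an RPF to mRNA ratio above the median of all other transcripts in replicate 1, and 2 of 30 in replicate 2. At 0 min these counts were 18 and 6, and at 60 min 20 and 3. The direction against 0 min in these same-numbered pairs therefore depended on which replicate was read. RPF and mRNA libraries were paired by replicate number alone, which the labels do not tie to a shared culture. Other pairings would give other ratios.

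Member by member, the gap between RPF replicates was shared by nearly the whole family. RPF levels, in CPM (counts scaled to a common library total after TMM, the trimmed mean of log ratios between libraries), were higher in replicate 1 for 89 of the 90 combinations of member and time. The median log2 difference between replicates 1 and 2 was 1.10 at 0 min (range 0.42 to 1.96), 1.10 at 60 min (−0.46 to 1.79) and 1.84 at 360 min (0.88 to 2.72), or 2.15-fold, 2.15-fold and 3.57-fold. For the other transcripts the median was 0.02, −0.01 and −0.03. The middle 50% of them ran from −0.42 to 0.43, −0.42 to 0.40 and −0.71 to 0.56. In RPF 11.2%, 10.3% and 6.94% of them differed at least as much as the members' median, in either direction. In mRNA the side changed with time. The members were higher in replicate 1 for 25 of 30 at 0 min, 2 of 30 at 60 min and 16 of 30 at 360 min, with medians of 0.36, −0.55 and 0.03. At 0 and 60 min most of the family thus differed together between replicates, in opposite directions. The size of these mRNA differences was common among other transcripts. At 0 min 62.8% of them, and at 60 min 44.1%, differed at least as much as the members' median.

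**Figure D2:**
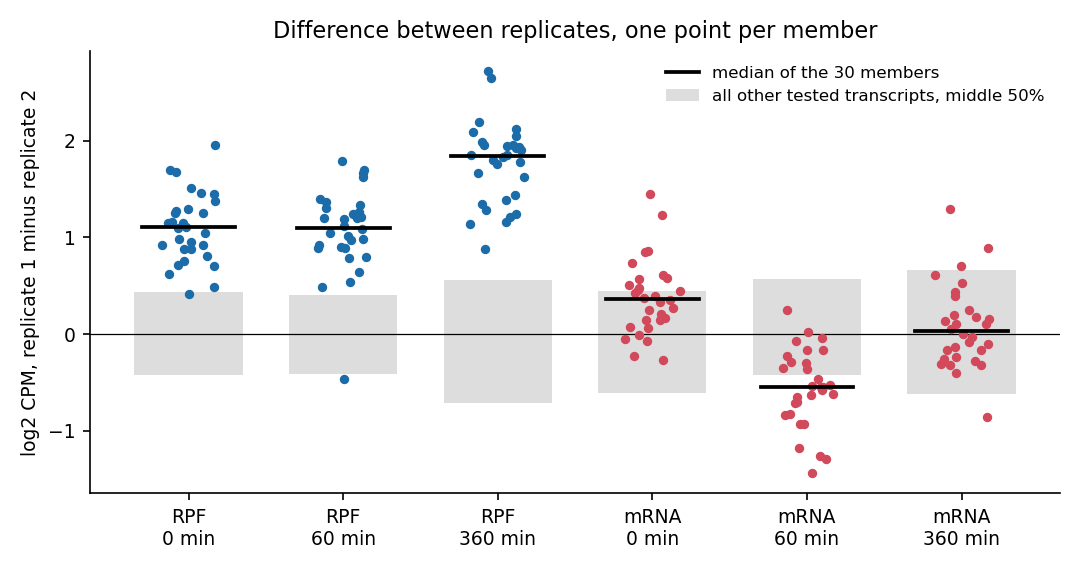
Difference in log2 CPM between replicate 1 and replicate 2 (y axis) for each of the 30 members (points) in each assay and time (x axis), with the members' median as a black line and the middle 50% of all other tested transcripts as a grey bar. In RPF nearly every point lies above the grey bar, with medians of 1.10, 1.10 and 1.84. In mRNA the median is inside the bar at 0 and 360 min and below it at 60 min (−0.55).

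In RPF the level of the family varied more than its makeup. Across the 6 RPF libraries the SD of a member's log2 CPM was 0.77 at the median (0.49 to 1.18). It was 0.38 for the 854 other transcripts with at least 81 counts, the lowest count of any member, in every RPF library. After each member was expressed as a share of the family's counts in the same library, the median SD was 0.22, and it was smaller for 30 of 30 members. The steadiest was ENST00000396203, whose share of family RPF counts stayed between 2.31% and 2.66% while its level ran from 570 to 1956 CPM. In mRNA the median SD was 0.32 for the members, and 0.24 as a share of the family, smaller for 24 of 30. For the 1058 others with at least 45 counts in every mRNA library the median SD of log2 CPM was 0.43. Both bounds come from the least counted member, so these others were not matched to the members in depth.

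**Figure D3:**
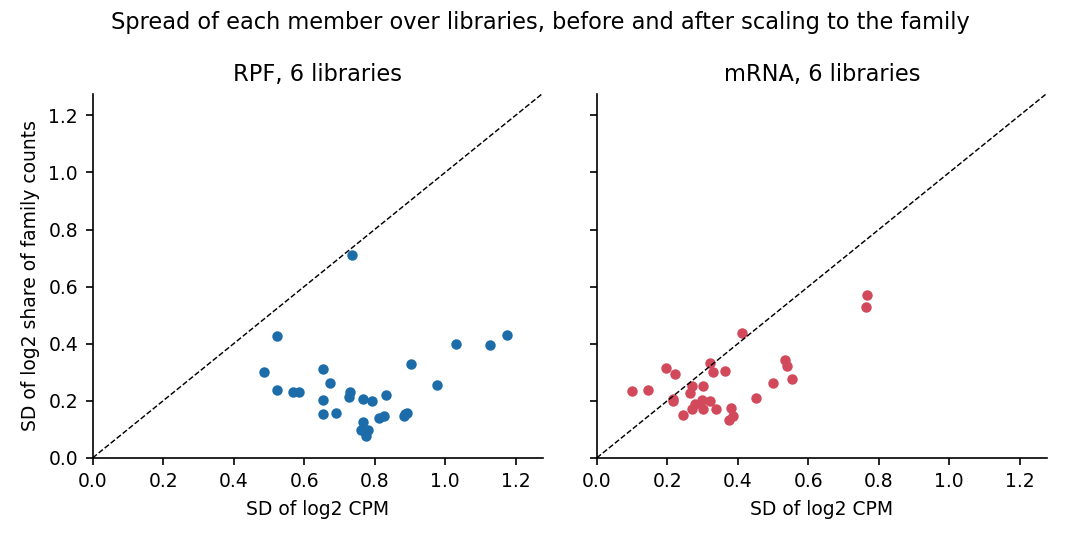
SD over 6 libraries of each member's log2 CPM (x axis) and of its log2 share of the family's counts (y axis), RPF left and mRNA right, 1 point per member, with the dashed line marking equal values. All 30 RPF points fall below the line, with ENST00000394077 highest at 0.71, while in mRNA 24 of 30 do.

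A few members departed from the shared pattern. ENST00000394077 made up 8.18% of family RPF counts in 60 min replicate 2 (1942 counts) and 2.16 to 3.84% in the other 5 RPF libraries. It was the 1 combination in which replicate 2 exceeded replicate 1, at 2802 against 2040 CPM. Its share of family mRNA in that replicate was 1.58%, inside the 1.3 to 1.87% of the other mRNA libraries. By the SD of log2 CPM, at 1.18, ENST00000391857 varied most in RPF level. It ran from 888 CPM (360 min replicate 2) to 5556 CPM (360 min replicate 1). Its mRNA ran from 1995 CPM (0 min replicate 2) to 6962 CPM (60 min replicate 2). ENST00000234875 had the least steady share of family mRNA, with its highest 2.94 times its lowest. Ribosomal protein genes have many near-identical processed copies in the genome, and how multiply mapping reads were counted is not given in the sources used here, so single-member values carry that uncertainty.

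Footprints on the family were compared between times first. No RPF change was detected in any of the 30 members, in a design in which no transcript was called: 0 passed edgeR's quasi-likelihood test at a threshold of 0.05 on p-values adjusted by Benjamini-Hochberg, as did 0% of all 9653 transcripts in each of the 3 comparisons. At an unadjusted p-value under 0.05 the members also numbered 0, where 2.31% of all transcripts passed at 60 min against 0 min, 3.91% at 360 against 0 min and 7.8% at 360 against 60 min. The median log2 change of the members was 0.12 at 60 min (23 higher, 7 lower), 0.06 at 360 min (18 and 12) and −0.04 from 60 to 360 min (13 and 17). Medians of the other transcripts were −0.01, 0.02 and 0.04. The standard error (SE) of a member's log2 change was 0.71 at the median in each comparison, against 0.47 to 0.48 for other transcripts. These are SEs of single transcripts and give no error for a family median. The median at 60 min was −0.59 without RPF 60 min replicate 1 and −0.28 without RPF 0 min replicate 2, and 0.81 without RPF 0 min replicate 1 and 0.57 without RPF 60 min replicate 2. Without RPF 360 min replicate 1 the medians for 360 min were −1.09 against 0 min and −1.20 against 60 min, and without RPF 360 min replicate 2 they were 0.67 and 0.56.

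Replicates of the 2 times did not overlap for 1 member higher and 0 lower at 60 against 0 min, where 15.2% and 16% of all transcripts did so. At 360 against 0 min it was 0 and 0 against 13.6% and 13.8%, and at 360 against 60 min 0 and 1 against 17.5% and 18%. Both cases were ENST00000394077. Its RPF level was 1574 and 1178 CPM at 0 min, 2040 and 2802 CPM at 60 min and 1724 and 634 CPM at 360 min for replicates 1 and 2. Its log2 change of 0.81 (SE 0.67) at 60 min was the most positive of the family, with an adjusted p-value of 0.999 in edgeR. From 60 to 360 min its −1.04 (SE 0.67) was the most negative, with an adjusted p-value of 0.736. The other members at the ends of these comparisons had replicates that overlapped. At 60 min ENST00000361436 had a log2 change of 0.47, ENST00000222247 of −0.43 and ENST00000311111 of −0.37. At 360 min against 0 min ENST00000361575 had 0.65 and ENST00000274242 0.45, and the lowest were ENST00000234875 at −0.33 and ENST00000394077 at −0.22. From 60 to 360 min ENST00000222247 had 0.46, ENST00000294189 0.41 and ENST00000234875 −0.69.

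**Figure D4:**
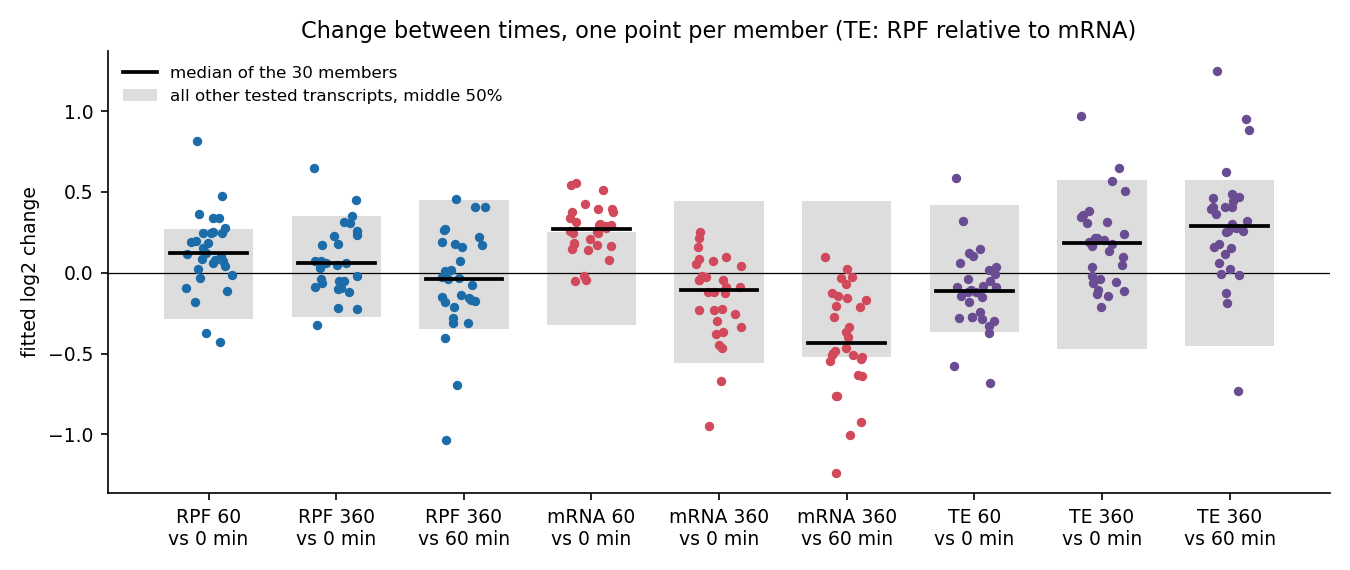
Fitted log2 change (y axis) of each of the 30 members (points) in the 9 comparisons of times (x axis: 3 in RPF, 3 in mRNA, 3 in TE, the RPF change relative to the mRNA change), with the members' median as a black line and the middle 50% of all other tested transcripts as a grey bar. The member medians lie inside the grey bars except in mRNA at 60 against 0 min, where the median (0.27) is just above, and are furthest from 0 in mRNA at 360 against 60 min (−0.43).

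Family mRNA was higher at 60 min and lower at 360 min in most members, with no member past the threshold. The median log2 change was 0.27 at 60 against 0 min (27 of 30 higher), −0.10 at 360 against 0 min (22 lower) and −0.43 at 360 against 60 min (28 lower), where other transcripts had medians of −0.02, −0.03 and −0.04. In edgeR's test 0 of 30 members, and 0% of all 9693 transcripts, had an adjusted p-value under 0.05 in each comparison. At an unadjusted p-value under 0.05 it was 0 members against 1.37%, 8.92% and 10.3% of all transcripts. The median SE of a member was 0.49 to 0.50. The higher value at 60 min rested on 1 library. Without mRNA 60 min replicate 2 the median change was −0.09 at 60 against 0 min and −0.10 at 360 against 60 min. At 360 against 0 min the median was 0.09 without mRNA 0 min replicate 1.

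Non-overlap in mRNA was counted in the same way. At 60 against 0 min 9 members were higher in both replicates and 0 lower, against 13.4% and 12.3% of all transcripts. At 360 against 0 min 1 was higher and 9 lower, against 19.8% and 19.1%, and at 360 against 60 min 0 were higher and 13 lower, against 20.7% and 19.6%. These values rest on TMM scaling. With library totals alone, the median of all transcripts was −0.19 at 360 against 0 min and −0.28 at 360 against 60 min, and the median of the members lay 0.08 and 0.40 below it, as it lay 0.07 and 0.39 below with TMM. At 60 against 0 min the median of all transcripts was 0.064 with library totals and −0.017 with TMM, and that of the members lay 0.29 above it with either. With library totals 30 of 30 members were higher at 60 min and 30 of 30 lower from 60 to 360 min, and 28 were lower at 360 against 0 min. This scaling moved the median of all transcripts in the direction of each of these counts. The share of all transcripts in that direction is not given here.

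The lowest mRNA changes at 360 min belonged to ENST00000234875 and ENST00000352983. ENST00000234875 had 238 and 200 CPM at 0 min, 144 and 391 CPM at 60 min and 149 and 79.9 CPM at 360 min, on 53 and 45 counts at the last time. Both 360 min values lay below both 0 min values, and the 60 min replicates lay on either side of those of 0 min. The log2 change against 0 min was −0.95 (SE 0.56), adjusted p = 0.620 in edgeR, and against 60 min −1.24 (SE 0.56), adjusted p = 0.489. ENST00000352983 had 1903 and 1452 CPM at 0 min, 1462 and 2780 CPM at 60 min and 1007 and 1105 CPM at 360 min. Its 360 min replicates were below those of both earlier times, with log2 changes of −0.67 (SE 0.52) and −1.01 (SE 0.52) and adjusted p-values of 0.696 and 0.549. At the other end, ENST00000391857 had a log2 change of 0.25 and ENST00000274242 of 0.22 at 360 against 0 min. From 60 to 360 min ENST00000344063 had 0.10 and ENST00000323345 0.02. At 60 against 0 min the highest were ENST00000361575 (0.55) and ENST00000361436 (0.54), and the lowest ENST00000344063 and ENST00000370321 (both −0.05).

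A change in TE is the assay by time interaction, fitted over 8632 transcripts of which 30 were members. In edgeR's test 0 members and 0% of all transcripts had an adjusted p-value under 0.05 in the 3 comparisons. At an unadjusted p-value under 0.05 it was 0 members against 1.75% of all at 60 against 0 min, 5.66% at 360 against 0 min and 4.69% at 360 against 60 min. The median log2 change of the members was −0.11 (8 higher, 22 lower), 0.19 (21 and 9) and 0.29 (25 and 5), and that of other transcripts 0.02, 0.01 and 0.02. The SE of a single member was 0.93 at the median, against 0.68 to 0.71 for other transcripts. Leaving out RPF 360 min replicate 1 gave −1.07 at 360 against 0 min and −0.79 at 360 against 60 min. Leaving out RPF 0 min replicate 1 gave 0.53 at 60 against 0 min, and leaving out RPF 60 min replicate 1 gave −0.81. All comparisons with 0 min share those libraries, and the 3 are not independent.

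Among single members, ENST00000361575 had the highest TE changes at 360 min. Its RPF level was 326 and 147 CPM at 0 min, 423 and 137 CPM at 60 min and 590 and 151 CPM at 360 min, and its mRNA 294 and 267, 243 and 581, and 236 and 199 CPM, for replicates 1 and 2. The RPF replicates of all 3 times overlapped, and replicate 2 stayed between 137 and 151 CPM. TE differed from 0 min by 0.97 on the log2 scale (SE 0.93), adjusted p = 0.922 in edgeR, and from 60 min by 1.25 (SE 0.93), adjusted p = 0.948. Next came ENST00000394668 with 0.65 and 0.95. The lowest were ENST00000311111 (−0.21) and ENST00000394077 (−0.14) at 360 against 0 min, and ENST00000394077 (−0.73) and ENST00000344063 (−0.19) at 360 against 60 min. At 60 against 0 min ENST00000394077 (0.59) and ENST00000370321 (0.32) were highest, and ENST00000294189 (−0.68) and ENST00000222247 (−0.58) lowest.

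Within each time, the fitted log2 ratio of RPF to mRNA of the members was 0.16 at the median at 0 min, −0.05 at 60 min and 0.17 at 360 min, where that of other transcripts was 0.12, 0.08 and 0.15. These values average replicates on opposite sides: 18, 20 and 24 of 30 members lay above the median of other transcripts in replicate 1, and 6, 3 and 2 in replicate 2. Leaving out 1 library moved the medians to between −0.69 and 0.66 at 0 min, −0.75 and 0.40 at 60 min, and −0.91 and 0.87 at 360 min. The ratio cancels a transcript's length only if the same region was counted in both assays, which the sources used here do not give. Of the 30 members, 1 had an edgeR adjusted p-value under 0.05 at each time, while 11.1%, 13.3% and 14.6% of all transcripts did at 0, 60 and 360 min.

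That member was ENST00000311111 at all 3 times. Its RPF level was 6196 and 2604 CPM at 0 min, 4577 and 2216 CPM at 60 min and 5365 and 2210 CPM at 360 min for replicates 1 and 2. Its mRNA level was 682 and 798 CPM, 594 and 869 CPM, and 676 and 760 CPM. Every RPF library was thus above every mRNA library, in the low replicates too. At 0 min the fitted log2 ratio was 2.56 (SE 0.70, adjusted p = 0.0336). The values were 2.23 (SE 0.69, adjusted p = 0.0460) for 60 min and 2.35 (SE 0.69, adjusted p = 0.0352) for 360 min. It placed this transcript at percentile 99.03, 97.4 and 96.5 of all tested. The call was lost without any single library of 0 or 60 min and without 3 of the 4 of 360 min, all but RPF replicate 2, while the log2 ratio stayed between 1.60 and 3.03. The fits that lost the call also called a smaller part of all transcripts. At the other end ENST00000361436 had a log2 ratio of −1.53 (SE 0.63) at 0 min, with an adjusted p-value of 0.119 in edgeR. Its RPF level there was 574 and 351 CPM and its mRNA 1606 and 1049 CPM. The next lowest at 0 min were ENST00000479035 (−1.34) and ENST00000394668 (−1.13), and the next highest ENST00000429711 (1.13) and ENST00000396203 (1.03), none past the threshold.

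The order of members by this ratio was kept while the family level moved. In each of the 6 pairs of same-numbered RPF and mRNA libraries the log2 ratio of a member was set against the median of the 30 members. Spearman's rho between library pairs, across the 30 members, was 0.84 at the median of 15 comparisons and ran from 0.77 to 0.95. Members share their libraries and differ in length and sequence, so this is a description with no test. It was not computed for other transcripts and is not read as a trait of this family. In all 6 library pairs 11 members lay above the family median and 9 below it. ENST00000311111 lay 2.11 to 2.66 above it, whereas its log2 ratio before the family median was taken off ran from 1.35 to 3.18. ENST00000361436 lay at −2.00 to −1.11 and ENST00000479035 at −1.5 to −1.23. The widest range among the 11 was that of ENST00000394077, 0.38 to 2.39, with the highest value at 60 min replicate 2.

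**Figure D5:**
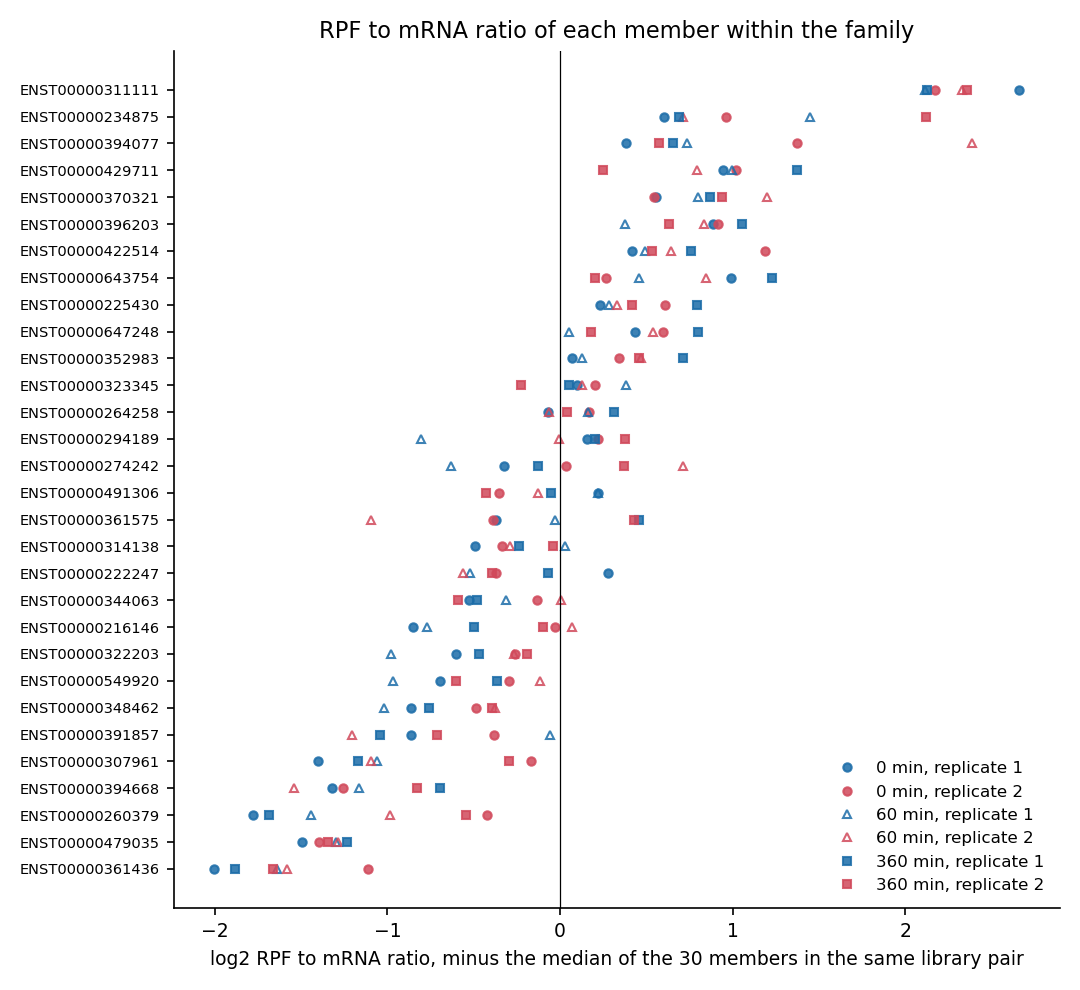
Each member (y axis, ordered by mean) against its log2 RPF to mRNA ratio minus the median of the 30 members in the same pair of same-numbered libraries (x axis), with shapes for time and colours for replicate. ENST00000311111 stands at 2.11 to 2.66 in all 6 pairs and ENST00000361436 at −2.00 to −1.11, and most members keep their side of 0 in both replicates.

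Levels of single members are counts per transcript that were not divided by length, since no lengths were used here, so no order of expression between them is read. By mean over the 6 RPF libraries, the most counted were ENST00000323345 (4258 CPM), ENST00000311111 (3861 CPM) and ENST00000429711 (3215 CPM). The least counted were ENST00000361575 (296 CPM), ENST00000234875 (411 CPM) and ENST00000344063 (520 CPM). In mRNA the most counted were ENST00000307961 (5424 CPM), ENST00000391857 (4355 CPM) and ENST00000323345 (3499 CPM), and the least counted ENST00000234875 (200.2 CPM), ENST00000361575 (303 CPM) and ENST00000647248 (537 CPM). ENST00000323345 showed the shared RPF pattern, with 5992 and 2179 CPM at 0 min, 6338 and 2454 CPM at 60 min and 6806 and 1780 CPM at 360 min. Its replicates were further apart than any pair of times within a replicate number. ENST00000429711 had 4041, 5578 and 5560 CPM at 0, 60 and 360 min in replicate 1 and 1653, 1615 and 843 CPM in replicate 2. Its 360 min value was above that of 0 min in replicate 1 and below it in replicate 2. ENST00000307961 mRNA was 7280 and 3096 CPM at 0 min, 5256 and 8226 CPM at 60 min and 5137 and 3551 CPM at 360 min. The 0 min replicates overlapped those of both other times, and both 360 min values lay below both 60 min values.

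The other members named above are given here with CPM of replicates 1 and 2 at 0, 60 and 360 min in turn. Those at the ends of the RPF comparisons come first. For ENST00000222247, RPF was 3055 and 940.2, 2268 and 699.8, and 3308 and 763 CPM, and mRNA 1759 and 1684, 1828 and 2044, and 1911 and 1773 CPM. For ENST00000274242, RPF was 1098 and 511, 1135 and 811, and 1423.5 and 774 CPM, and mRNA 961 and 690.4, 989 and 977, and 859 and 1061 CPM. For ENST00000294189, RPF was 1949 and 805, 1717 and 716, and 2541 and 680.5 CPM, and mRNA 1221 and 957, 1689.5 and 1421, and 1218 and 927 CPM. Each of the 3 was higher in RPF replicate 1 than in replicate 2 at every time. For ENST00000344063, RPF was 662 and 349.9, 744 and 322, and 818 and 226 CPM, and mRNA 666 and 530.1, 519.7 and 633, and 628 and 604 CPM. For ENST00000370321, RPF was 2868 and 1515, 3300.1 and 1910.4, and 2928 and 1267 CPM, and mRNA 1362 and 1433, 1065 and 1641, and 884 and 1167 CPM. For ENST00000647248, RPF was 989.5 and 564, 1123 and 570.0, and 1175 and 284 CPM, and mRNA 511 and 516, 607 and 774, and 370.4 and 444 CPM. These too were higher in RPF replicate 1 at every time. For ENST00000396203, RPF was 1810.3 and 809.5, 1804 and 791, and 1956 and 570.2 CPM, and mRNA 684 and 593, 779.5 and 874, and 519 and 650.2 CPM. For ENST00000479035, RPF was 1360.2 and 657, 1536 and 778, and 1671 and 434 CPM, and mRNA 2681 and 2391.5, 2124 and 3748, and 2169 and 1952 CPM. For ENST00000394668, RPF was 800.5 and 309, 725 and 359, and 1039 and 262 CPM, and mRNA 1395 and 1024, 913 and 2067, and 929 and 824 CPM. ENST00000396203 was at the high end of the RPF to mRNA ratio, and the other two at the low end.

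Of members shown above in 1 assay, ENST00000361436 had RPF of 574 and 351, 896 and 388, and 736 and 232 CPM, and mRNA of 1606 and 1049, 1571 and 2298, and 1495.5 and 1300.4 CPM. ENST00000391857 had RPF of 4291 and 1106, 4859 and 1529.5, and 5555.5 and 888 CPM, and mRNA of 5450.2 and 1995, 2845.5 and 6962, and 6304.5 and 2571 CPM. Both had their highest mRNA value in 60 min replicate 2. In mRNA, ENST00000429711 had 1465 and 1127, 1572 and 1839.9, and 1184 and 1254 CPM. ENST00000323345 had mRNA of 3907 and 2614, 2737 and 4439, and 3614 and 3684 CPM. In RPF, ENST00000307961 had 3941.5 and 1992, 4474 and 1946.5, and 4143 and 1636 CPM. For these 3 as well, the highest mRNA value was in 60 min replicate 2. ENST00000234875 had RPF of 517 and 281, 704 and 325, and 438 and 198 CPM. ENST00000352983 had RPF of 2856 and 1331, 2838 and 1949, and 2995 and 859.9 CPM. In both, RPF replicate 1 was above replicate 2 at each time, as for the family. For ENST00000394077, mRNA was 844 and 628, 688 and 1057, and 603 and 751 CPM.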

How the data were processed

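For each library the authors deposited a table of counts by Ensembl transcript ID, and its values are whole numbers whose totals differ between libraries. Per the submitters' processing notes, cutadapt 2.8, Bowtie 1.2.3 and STAR 2.7.10a were used, with no role named; the counting program, genome build, counted region and use of strand are not given in the sources used here. Per the labels' protocols, footprints came from monosome and polysome fractions digested with RNase I and size-selected on a gel; how the mRNA libraries were made is not described for them. A transcript absent from a file was given 0 counts.

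The tests used edgeR 4.0.16 (R 4.3.3): filterByExpr, TMM within each assay, and the quasi-likelihood test on the 6 libraries of an assay by time or, for TE and RPF against mRNA, on all 12 by assay and time, with no covariate. P-values were adjusted by Benjamini-Hochberg over all transcripts tested. SE was taken as the log2 change over the root of the F statistic. The pipeline was also run on simulated data, with each transcript drawn on its own and without the RPF replicate gap that the family shares. The simulation therefore does not show how the tests behave on this family. Per-library log2 values used a pseudocount of 0.5 counts. Replicates differed beyond counting noise (chi-square per degree of freedom 8.61 to 16.7), so each was counted as its own sample.

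Members and lists were chosen with earlier results of these data known. Values were given for the 3 most and least counted members, the 2 highest and lowest log2 changes per time comparison, the 3 highest and lowest RPF to mRNA ratios at 0 min, and any member past the threshold; members in the paragraphs on spread and departures were chosen after their values were seen. Lists of other genes and cell line markers, planned by symbol, were not computed because IDs could not be paired with symbols. Alternatives were other scalings, DESeq2 1.42.0, other filters, the compared times alone, each library left out in turn, and a block for the replicate number.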

Additional observations from a re-analysis of the deposited data

How the results depend on the processing

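For the 9 comparisons of times, 0 members had an adjusted p-value under 0.05 in every alternative that kept both replicates, including DESeq2. Some of these alternatives called other transcripts. In mRNA at 360 against 60 min DESeq2 called 66 of 9693 transcripts and edgeR with no filter on low counts 113 of 17953. With library totals in place of TMM it was 0 of 9693. With 2 libraries a group, leaving out 1 leaves a lone library that is assumed to vary like the others. The number of members past the threshold in RPF against mRNA, 1 at each time, was 2, 3 and 2 with DESeq2 at 0, 60 and 360 min. Of all 8632 transcripts, 1194, 1243 and 1238 were past it with DESeq2. The family's median log2 change, leaving out each library, ran for RPF from −0.59 to 0.81 (60 against 0 min), −1.09 to 0.69 (360 against 0 min) and −1.2 to 0.64 (360 against 60 min). For mRNA it ran from −0.088 to 0.52, −0.27 to 0.09 and −0.63 to −0.10, and for TE from −0.81 to 0.53, −1.07 to 0.84 and −0.79 to 0.94. For RPF against mRNA it ran from −0.69 to 0.66, −0.75 to 0.40 and −0.91 to 0.87 at the 3 times. The mRNA share at 360 min was 3.46% without the most counted member and 3.93% of the transcripts listed in all 12 files.

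With library totals in place of TMM, the RPF median at 360 against 0 min was −0.10 (10 higher, 20 lower), with the median of all transcripts at −0.12. In mRNA at 60 against 0 min ENST00000344063 then had 0.027 and ENST00000370321 0.044, and at 360 against 60 min ENST00000344063 had −0.15 and ENST00000323345 −0.23. With no filter on low counts ENST00000323345 had −0.000203 in that comparison, and with at least 10 counts in every library it had −0.12 and ENST00000344063 −0.051. The causes were not tested.

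With the replicate number as a block (the replicate block), 2 members were past the threshold in RPF against mRNA at each time. Of all 8632 transcripts, 1165, 1311 and 1399 were past it at 0, 60 and 360 min. In the 9 comparisons of times 0 members were. The replicate block turned the family's RPF median at 360 against 0 min from 0.06 to −0.11. It took the TE median at 360 against 0 min from 0.19 to 0.049. In RPF against mRNA it took the medians to −0.038, −0.14 and −0.016 at 0, 60 and 360 min. Over all transcripts, in the comparisons of times, the replicate block gave 1, 2 and 7 calls in RPF and 0 in mRNA and TE. The labels do not say that a number marks a shared day or culture. Deviations of same-numbered libraries correlated at 0.24, 0.29 and 0.20 in RPF, and in mRNA at −0.36 between 0 and 60 min, −0.06 between 0 and 360 min and 0.33 between 60 and 360 min. Crossing the numbers between the 4 mRNA libraries of 0 and 60 min, an alternative chosen after seeing the data, gave 0 calls in mRNA at 60 against 0 min.

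Members named in the text whose direction turned when a library was left out had these ranges of log2 change over the libraries left out. In RPF 60 against 0 min they were ENST00000222247 −1.52 to 0.67, ENST00000311111 −1.0 to 0.39, ENST00000361436 −0.26 to 0.97. In RPF 360 against 0 min they were ENST00000234875 −1.05 to 0.18, ENST00000394077 −1.16 to 0.32, ENST00000361575 −0.69 to 1.34, ENST00000274242 −0.10 to 1.11. In RPF 360 against 60 min they were ENST00000222247 −1.0 to 1.54, ENST00000294189 −0.88 to 1.17. In mRNA 60 against 0 min they were ENST00000344063 −0.21 to 0.15, ENST00000370321 −0.36 to 0.26, ENST00000361575 −0.18 to 1.07. In mRNA 360 against 0 min they were ENST00000391857 −0.53 to 1.2, ENST00000274242 −0.010 to 0.52. In mRNA 360 against 60 min they were ENST00000344063 −0.058 to 0.25, ENST00000323345 −0.30 to 0.41. In TE 60 against 0 min they were ENST00000294189 −1.45 to 0.084, ENST00000222247 −1.67 to 0.50, ENST00000370321 −0.13 to 0.84. In TE 360 against 0 min they were ENST00000311111 −1.02 to 0.54, ENST00000394077 −1.07 to 0.42, ENST00000361575 −0.35 to 1.66, ENST00000394668 −0.69 to 1.49. In TE 360 against 60 min they were ENST00000344063 −1.42 to 0.55, ENST00000361575 −0.062 to 2.29, ENST00000394668 −0.38 to 1.64.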
